A study of Mus musculus with 6 samples.

Results

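The 41 genes described here encode the glucose-using core of metabolism: 19 genes of glycolysis with its glucose and lactate transporters, 7 genes of the pentose phosphate pathway and 15 genes of the tricarboxylic acid (TCA) cycle with the enzymes that feed it pyruvate. They were chosen by symbol from knowledge of the pathways, with earlier results of these data known. Each was found once among the 14918 genes of the deposited table, and all 41 had enough reads to be tested. The libraries are poly(A) RNA-seq of macrophages from the livers of C57BL/6 mice. One group of 3 mice was fed a high fat diet and the other group of 3 a normal diet, both for 18 weeks from an age of about 6 weeks, and the labels give no other treatment or allele for either group. Each mouse gave 1 library, and replicate numbers 1 to 3 only name the libraries of a diet. The sources used here do not say how the macrophages were isolated.

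Glycolysis splits glucose into pyruvate in the cytosol, and Ldha can reduce pyruvate to lactate, which leaves the cell through Slc16a3. The pentose phosphate pathway branches off after the hexokinase step and yields NADPH, which the phagocyte oxidase and lipid synthesis use, and pentose sugars. The TCA cycle in mitochondria oxidises pyruvate and fatty acids, with Pdha1 and Pcx as the entries for pyruvate. Macrophages under inflammatory stimuli are known to favour glycolysis, partly through the transcription factor Hif1a, while hepatocytes, the main cells of the liver, carry isozymes of their own for glucose storage and synthesis.

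Total counts per library lay between 17470439 and 23610956. The Kupffer cell lectin Clec4f stood at 6564 ± 813 CPM (read counts scaled to a common library size after TMM adjustment) under high fat feeding and 7916 ± 2252 CPM under normal feeding (SD, n = 3), and the macrophage receptor Adgre1 at 1612 ± 336 and 1413 ± 243 CPM, so the markers of the labelled cell type were present in every library. Markers of other liver cells were present too, and their sums differed between libraries and diets. The 22 hepatocyte markers summed to between 6103 and 10195 CPM under high fat feeding and to between 684 and 3171 CPM under normal feeding, with none at 0 counts, and all 22 were highest in high fat replicate 1 and lowest in normal diet replicate 1. Alb, the serum albumin gene, was at 3761 ± 1100 and 1150.1 ± 712 CPM. The 9 monocyte markers summed to between 1416 and 1761 CPM against 493 and 801, the 10 neutrophil markers to between 301 and 350 CPM against 206 and 221, and the 8 dendritic cell markers to between 172 and 196 CPM against 189 and 393. The 8 sinusoidal endothelial markers summed to between 1345 and 1817 CPM against 1702 and 4352, all highest in normal diet replicate 3, and the 7 stellate cell markers to between 36.2 and 54.7 CPM against 64.5 and 212, with 6 highest in normal diet replicate 1. In bulk RNA, fewer cells of a type and less RNA per cell cannot be told apart.

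None of the 41 genes passed the test between the diets. By edgeR's quasi-likelihood test with Benjamini-Hochberg adjustment over all 14361 genes tested, 0 of 41 had an adjusted p under 0.05, where 91 genes (0.634%) passed. At an unadjusted p under 0.05 there were 9 of 41 (Eno1, Pgls, Pcx, Fh1, Idh2 and Suclg1 higher on the high fat diet, Hk2, Hk3 and Pfkp lower), beside 18.6% of all genes. DESeq2, on the same counts, called 3 of 41 (Pcx higher, Pfkp and Hk3 lower), beside 8.08% of all genes. The authors' deposited table has an adjusted p under 0.05 for the same 3 genes in the same directions, beside 7.98% of its genes. The libraries of the diets did not overlap in 9 of 41 genes, 8 of them higher on the high fat diet, beside 25.3% of all genes without overlap. These shares are near those of all genes.

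Most pentose phosphate and TCA cycle differences were also bounded tightly, and the glycolytic ones less so. The 95% interval of the log2 fold change (high fat over normal diet) lay within 1 log2 unit of 0 in 36 of 41 genes and within 0.5 in 27. Over all 14361 genes tested, 9812 lay within 1 and 5860 within 0.5. Within 0.5 were 8 of 19 glycolytic genes, near the share of all genes, 7 of 7 pentose phosphate genes and 12 of 15 TCA cycle genes. Among the 3 pathways, glycolysis had the largest spread within the normal diet, near that of all genes: the median coefficient of variation of its members was 15.9% on the normal diet, against 6.86% in the pentose phosphate pathway, 7.29% in the TCA cycle and 15.6% over all genes. Under high fat feeding it was 9.20% in glycolysis and 10.1% over all genes.

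**Figure D1:**
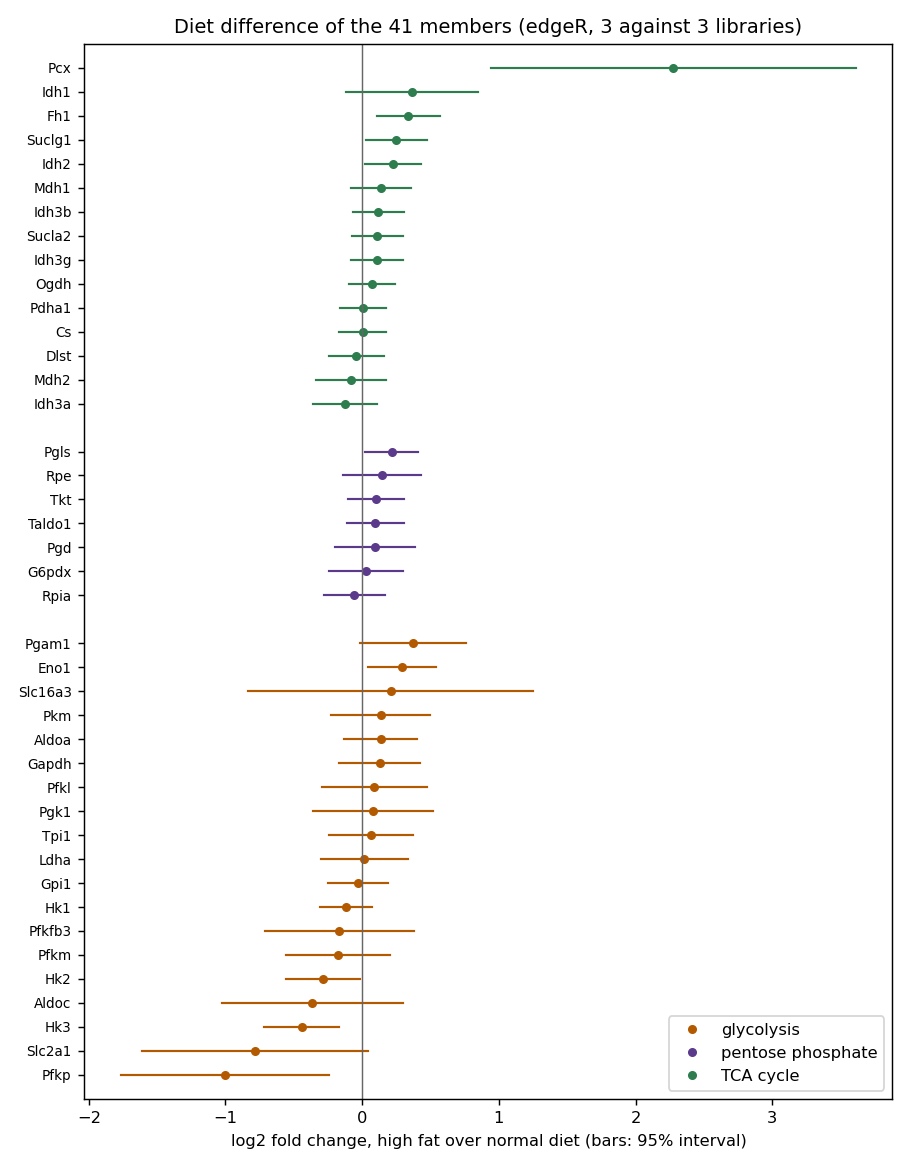
Log2 fold change of each of the 41 genes, high fat over normal diet, from edgeR with 3 libraries per diet. Points are estimates, bars are 95% intervals, and colours separate the 3 pathways. Pcx lies apart at 2.28, Pfkp is lowest at -1.01, and most other genes lie close to 0.

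The glycolytic genes did not move one way. Of 19 members, 10 had a positive and 9 a negative log2 fold change, with a median of 0.02 (all genes tested: 0.00) and a range from -1.01 (Pfkp) to 0.37 (Pgam1). The negative values were those of Slc2a1, Hk1, Hk2, Hk3, Gpi1, Pfkm, Pfkp, Pfkfb3 and Aldoc, and 5 of the 10 positive ones turned negative without normal diet replicate 2.

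Glucose enters through Slc2a1 (GLUT1). Its level was 39.4, 37.5 and 45.8 CPM in the high fat libraries and 93.5, 35.9 and 81.9 CPM in the normal diet libraries. Normal diet replicate 2 lay below all 3 high fat libraries and the other normal diet libraries well above them, so the diets overlapped. The log2 fold change was -0.78 ± 0.34 (SE, edgeR adjusted p = 0.288).

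Hexokinases trap glucose in the cell as glucose 6-phosphate. Hk3, the isozyme typical of myeloid cells, was the most abundant by length-corrected level, at a mean of 120 FPKM against 23.2 for Hk2 and 19.3 for Hk1. Hk3 (chromosome 13, 55005985 to 55021385, mm10, minus strand) stood at 332, 330.1 and 319.6 CPM under high fat feeding and 505, 378 and 451 CPM under normal feeding. The high fat libraries were close to each other and all below the normal diet libraries. The log2 fold change was -0.44 ± 0.12 (edgeR adjusted p = 0.124), and DESeq2 called it lower (adjusted p = 0.0186). Hk2, the inducible hexokinase, was at 115 ± 16.2 CPM under high fat feeding and 141 ± 8.37 CPM under normal feeding, and its high fat range reached 132 CPM, just over the lowest normal diet library at 131 CPM. Hk1 was at 79.3 ± 6.07 and 86.2 ± 3.47 CPM (log2 fold change -0.12, 95% interval -0.31 to 0.07).

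Gpi1 turns glucose 6-phosphate into fructose 6-phosphate, which phosphofructokinase then commits to glycolysis. Gpi1 was level at 249 ± 12.4 and 254 ± 22.3 CPM (95% interval of the log2 fold change -0.25 to 0.19). The platelet-type phosphofructokinase Pfkp (chromosome 13, 6579768 to 6648777, mm10, minus strand) had 80.4, 84.2 and 95.9 CPM under high fat feeding and 219, 94.6 and 209 CPM under normal feeding. Normal diet replicate 2 was inside the high fat range and the other normal diet libraries were well above any high fat library. The log2 fold change of -1.01 ± 0.31 had an edgeR adjusted p of 0.172 and a DESeq2 adjusted p of 0.0153.

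The liver-type isozyme Pfkl was at 69.0 ± 6.35 and 64.8 ± 13.6 CPM and the muscle-type Pfkm at 7.80 ± 1.0 and 8.83 ± 0.762 CPM. The FPKM ratio of Pfkp to Pfkl was 1.006, 1.005 and 1.007 in the high fat libraries and 2.56, 1.52 and 2.19 in the normal diet libraries. This ratio separated the diets in every library, including normal diet replicate 2, in which both genes were low among the normal diet libraries. Of the other ratios computed, Hk3 to Hk1 also separated the diets (5.10 to 5.71 under high fat feeding, 6.06 to 7.84 under normal feeding). Those of Pkm to Ldha, G6pdx to Pgd, Cs to Idh3a and Idh1 to Idh2 overlapped. The share of all gene pairs whose ratio separates the diets was not computed. A ratio within a library shows unequal levels and does not say which of the genes moved. Pfkfb3, which makes the fructose 2,6-bisphosphate that activates phosphofructokinase, was at 99.8 ± 6.31 and 112 ± 33.7 CPM.

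The promoters of Pfkp and Hk3 are shown because these were the glycolytic genes that DESeq2 called. They are RefSeq windows of 300 bases (GRCm38.p6, 5′ to 3′ on the gene's strand), and capitals mark the core of the hypoxia response element, ACGTG or GCGTG read on either strand (CACGT or CACGC on the strand shown). The Pfkp window, chr13:6648722-6649021 on the minus strand, holds 4 cores and the Hk3 window, chr13:55021336-55021635 on the minus strand, holds 1.
Pfkp: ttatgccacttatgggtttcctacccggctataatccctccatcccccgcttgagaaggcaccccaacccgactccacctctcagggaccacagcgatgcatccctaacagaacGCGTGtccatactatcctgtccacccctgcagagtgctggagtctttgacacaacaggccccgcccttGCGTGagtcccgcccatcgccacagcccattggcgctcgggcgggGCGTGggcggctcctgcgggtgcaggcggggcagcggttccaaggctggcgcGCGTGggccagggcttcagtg
Hk3: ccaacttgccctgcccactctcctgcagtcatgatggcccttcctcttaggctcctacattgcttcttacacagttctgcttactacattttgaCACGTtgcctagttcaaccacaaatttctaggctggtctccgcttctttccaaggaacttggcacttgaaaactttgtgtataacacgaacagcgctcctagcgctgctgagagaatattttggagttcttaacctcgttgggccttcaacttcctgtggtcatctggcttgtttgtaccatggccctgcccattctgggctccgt
A core occurred in at least 1 window of 33 of the 40 genes with a RefSeq window, among them 17 of 19 glycolytic genes, 6 of 7 pentose phosphate genes and 10 of 14 TCA cycle genes. Of all 27025 genes in the RefSeq set, 46.7% have a window with a core. A match is a description of letters and not of a bound site.

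Gapdh and Aldoa were the most abundant genes of the pathway per length. Aldoa, which cleaves fructose 1,6-bisphosphate, stood at 595, 600.0 and 685 CPM under high fat feeding and 634, 515 and 564 CPM under normal feeding (log2 fold change 0.13 ± 0.11, edgeR adjusted p = 0.562). Gapdh, the triose phosphate dehydrogenase, was the most abundant of the 41 genes, with a mean of 739 FPKM. Its libraries had 1019, 1089 and 1182 CPM under high fat feeding and 1087, 858 and 1065 CPM under normal feeding, overlapping apart from the low normal diet replicate 2 (log2 fold change 0.13 ± 0.12, edgeR adjusted p = 0.626). Tpi1, which interconverts the triose phosphates, was at 153 ± 11.3 and 147 ± 23.3 CPM, Pgk1, the first ATP-forming kinase of the pathway, at 163 ± 23.9 and 155 ± 33.1 CPM, and the brain-type aldolase Aldoc at 5.29 ± 0.730 and 6.81 ± 2.25 CPM.

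Pgam1 and Eno1 were the glycolytic genes in which the high fat libraries lay above all normal diet libraries. Eno1, the enolase, had 514, 517 and 602 CPM under high fat feeding and 472, 406 and 457 CPM under normal feeding. The gap between the nearest libraries was narrow, and the log2 fold change was 0.29 ± 0.11 (edgeR adjusted p = 0.210). Pgam1, the phosphoglycerate mutase before it, was at 72.2 ± 12.1 and 55.8 ± 9.06 CPM (log2 fold change 0.37 ± 0.16, edgeR adjusted p = 0.285), with its lowest high fat library at 61.8 CPM and its highest normal diet library at 61.1 CPM. Gapdh, Eno1 and several other glycolytic genes have near-identical copies in the mouse genome, and the sources used here do not say how reads shared with copies were counted, so their levels are uncertain.

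Pkm, the pyruvate kinase of most tissues outside the liver, stood at 747, 792 and 957 CPM under high fat feeding and 850.0, 625 and 799 CPM under normal feeding. The diets overlapped, with high fat replicate 3 highest and normal diet replicate 2 lowest (log2 fold change 0.13 ± 0.15, edgeR adjusted p = 0.683). Ldha, which makes lactate, was at 399 ± 27.2 and 395 ± 62.9 CPM, with a 95% interval of the log2 fold change from -0.30 to 0.33. The lactate exporter Slc16a3 had 58.4, 53.2 and 68.6 CPM against 65.3, 20.6 and 70.1 CPM. Normal diet replicate 2 was far below the others, and Slc16a3 had a wide interval from -0.84 to 1.25. The difference was therefore poorly bounded in either direction.

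**Figure D2:**
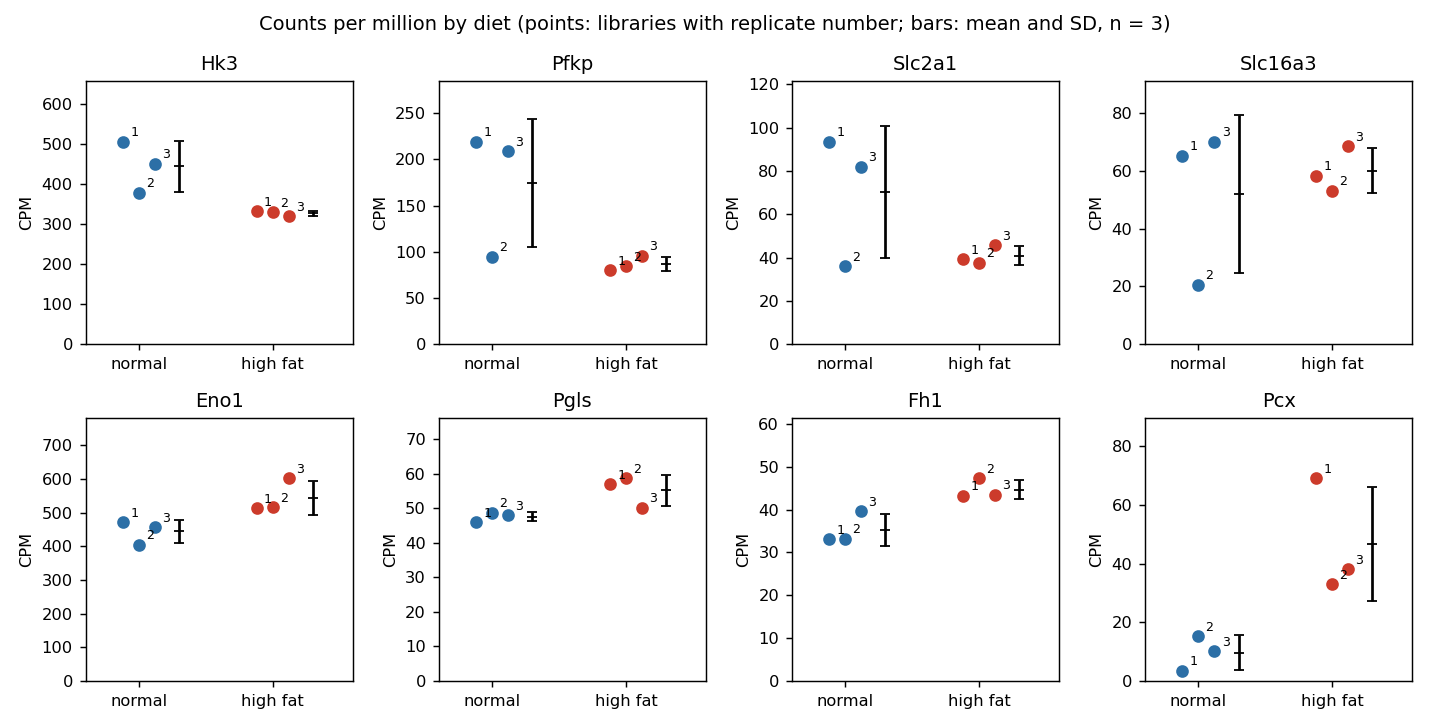
CPM of 8 genes by diet, with an axis that starts at 0. Points are libraries with their replicate number, and bars are mean and SD with n = 3. For Pfkp, Slc2a1 and Slc16a3, normal diet replicate 2 lies far below the other normal diet libraries, whereas for Hk3, Eno1, Pgls, Fh1 and Pcx the diets do not overlap.

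Normal diet replicate 2 stood apart in glycolysis. It was the lowest of the 6 libraries in 14 of 19 glycolytic genes (73.7%), against 20.1% of all genes tested, 1 of 7 pentose phosphate genes and 3 of 15 TCA cycle genes. The exceptions were Hk1, Hk2, Hk3, Pfkm and Pfkp. The summed level of the 19 genes was 2030 FPKM in it and between 2417 and 2797 FPKM in the other 5 libraries. The same library held the most Kupffer cell marker RNA, with 7 of 9 markers highest there and a sum of 26508 CPM against 16117 and 20145 CPM in the other normal diet libraries. It also held the least dendritic cell marker RNA of its diet, 189 CPM against 392 and 393, which is within the high fat range of 172 to 196 CPM. It was the lowest of the 6 libraries in 6 of 9 monocyte markers, with a sum of 493 CPM against 745 to 1761 in the others, and in 8 of 10 neutrophil markers, with a sum of 206 CPM against 210 to 350. All 8 dendritic cell markers had a negative log2 fold change between the diets, and none was at 0 counts in any library. Past the edgeR threshold was 1 of them (Itgae), beside 0.634% of all genes. So were 3 of 10 neutrophil, 2 of 9 monocyte and 1 of 22 hepatocyte markers, all higher on the high fat diet. Pfkp and Slc2a1 were high in normal diet replicates 1 and 3, in which the dendritic cell markers were high. Other marker sums were also highest in those libraries. Sinusoidal endothelial markers summed to 2380 and 4352 CPM there, against 1345 to 1817 in the others. Lymphocyte markers summed to 122 and 207 CPM against 85.5 to 104, and cholangiocyte markers to 8.78 and 12.4 CPM against 4.68 to 7.15. The pattern therefore does not single out dendritic cells. The part of these cell types in the glycolytic values was not tested.

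Leaving that library out changed the account of the pathway, but it was singled out by these same genes. Where it is the lowest normal diet library, its omission raises the normal diet mean. Lower fold changes then follow from the choice of library, and the values are given as description. Without normal diet replicate 2, 4 glycolytic genes passed edgeR's test, all lower on the high fat diet, beside 9.44% of all 14669 genes then tested. Pfkp had a log2 fold change of -1.31 ± 0.09 (edgeR adjusted p = 0.00256), Slc2a1 -1.11 ± 0.11 (0.00506), Hk3 -0.56 ± 0.09 (0.0158) and Pfkfb3 -0.41 ± 0.08 (0.0284). The median of the 19 turned from 0.02 to -0.12, with 14 of 19 negative, and Pfkl, Tpi1, Pgk1, Ldha and Slc16a3 changed from positive to negative without passing. Leaving out any other library gave 0 calls among the 19. The hepatocyte score, the mean log2 CPM of the hepatocyte markers, as a covariate gave 0 as well, with log2 fold changes of -0.47 ± 0.50 for Pfkp and -0.20 ± 0.18 for Hk3. No gene of the whole table passed in that fit. The score did not overlap between the diets (6.86 to 7.71 under high fat feeding, 3.73 to 5.79 under normal feeding), so the fit cannot tell the score and diet well apart.

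**Figure D3:**
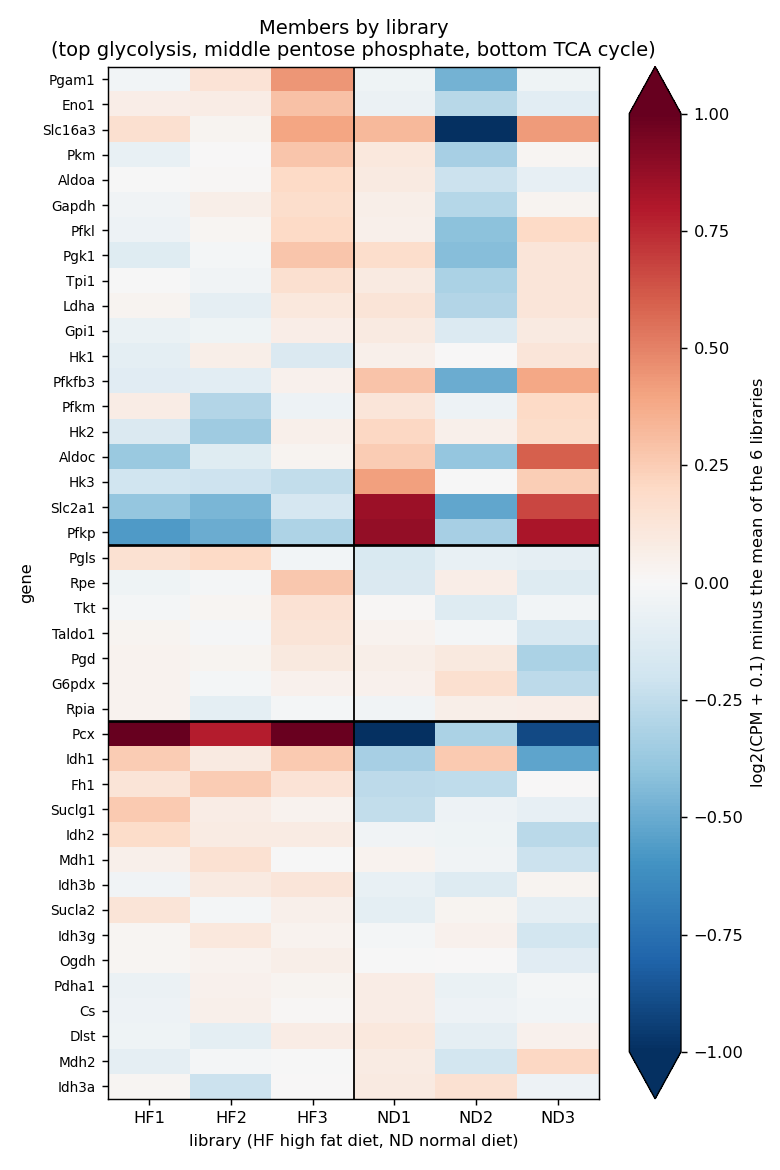
Level of each gene in each library as log2(CPM + 0.1) minus the mean of the 6 libraries, red above and blue below, clipped at 1 and -1. Rows are genes by pathway, sorted by fold change, and columns are libraries. Most of the glycolytic block is blue in ND2 (normal diet replicate 2), which was lowest in 14 of 19 of its genes.

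Isozyme make-up was compared as shares of the summed FPKM of each isozyme family. Pfkp made up 46.7 ± 0.543% of phosphofructokinase under high fat feeding and 63.2 ± 6.71% under normal feeding, with no overlap between the libraries. This share rests on the same values as the ratio of Pfkp to Pfkl. Of Hk1, Hk2 and Hk3 together, Hk3 made up 72.1 ± 1.24% and 75.0 ± 2.0%, a small difference in which the highest high fat library (72.9%) came close to the lowest normal diet library (73.1%). The liver pyruvate kinase Pklr made up 3.37 ± 1.71% of pyruvate kinase against 0.584 ± 0.426%, lowest in normal diet replicate 1 and highest in high fat replicate 1, as were the hepatocyte markers. Idh1 made up 73.1 ± 1.22% and 70.6 ± 4.72% of the summed Idh1 and Idh2, and the diets overlapped. Eno1 (95.7% and 95.8% of enolase) and Ldha (97.0% and 97.3% of lactate dehydrogenase) held nearly the whole of their families on both diets.

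**Figure D4:**
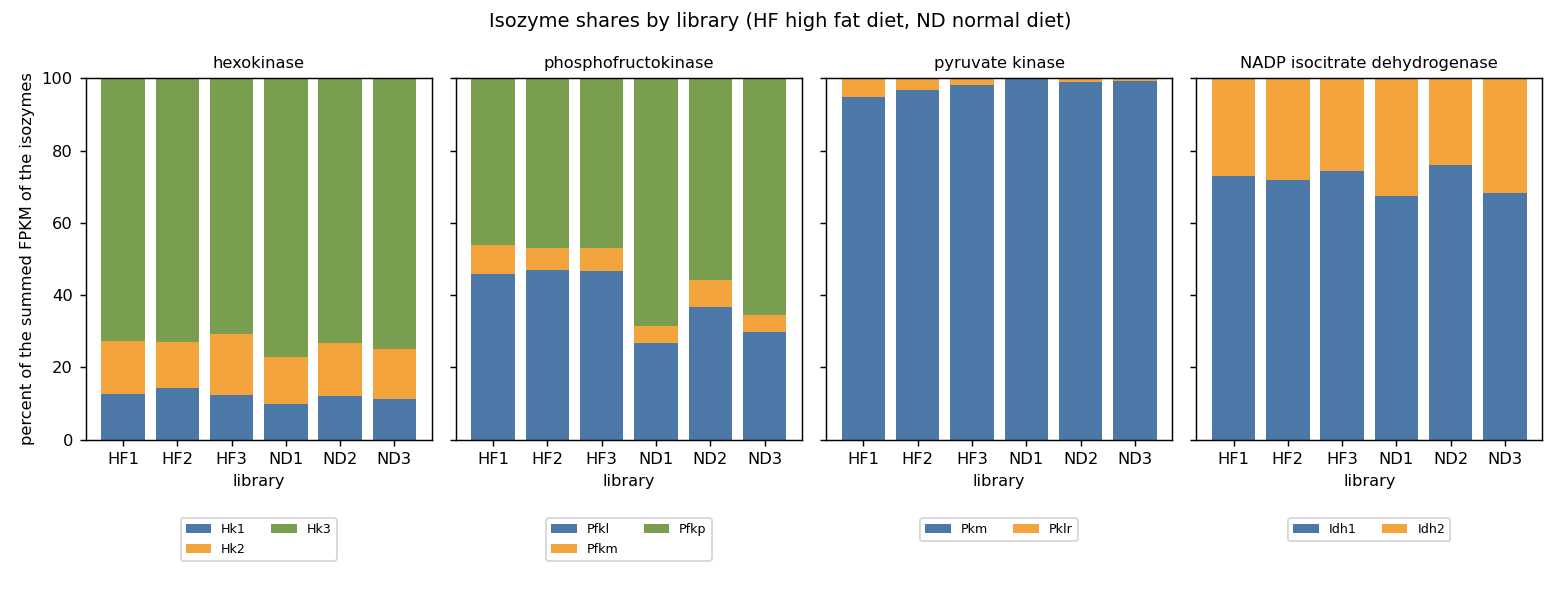
Share of each isozyme in the summed FPKM of its family, in percent, for each of the 6 libraries. The Pfkp share is between 46.1% and 47.1% in the high fat libraries and between 55.7% and 68.6% in the normal diet libraries, and the Pklr share is smallest in ND1 (normal diet replicate 1).

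The pentose phosphate pathway was the most even of the 3. None of its 7 genes passed the test under any setting tried, 6 of 7 log2 fold changes were positive, the median was 0.10 and the range ran from -0.06 (Rpia) to 0.22 (Pgls). All 7 intervals lay within 0.5 log2 units of 0, so at this depth and spread a change of that size in either direction lies outside the interval of every member. Summed over the 7 genes, the level was 651 ± 25.8 FPKM under high fat feeding and 600 ± 32.1 FPKM under normal feeding.

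The oxidative branch makes NADPH. G6pdx, its rate-limiting dehydrogenase, was at 163 ± 3.57 CPM under high fat feeding and 160 ± 23.3 CPM under normal feeding, a log2 fold change of 0.03 (95% interval -0.24 to 0.30). Pgls, the lactonase of the second step, had 56.8, 58.6 and 50.1 CPM against 46.0, 48.6 and 47.9 CPM. Its high fat libraries were all above the normal diet libraries by a small margin, with a log2 fold change of 0.22 ± 0.08 (edgeR adjusted p = 0.228). Pgls shares exon sequence with Fam129c on the same strand in the GENCODE annotation. Pgd, the second dehydrogenase, had 314, 312 and 328 CPM against 319, 329 and 245 CPM, with only normal diet replicate 3 apart (log2 fold change 0.09 ± 0.12, edgeR adjusted p = 0.719).

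The non-oxidative branch links pentoses back to glycolysis. Its transaldolase Taldo1 was the most abundant gene of the pathway, with a mean of 319 FPKM, and had 398, 389 and 428 CPM under high fat feeding and 400.3, 386 and 350 CPM under normal feeding (log2 fold change 0.10 ± 0.09, edgeR adjusted p = 0.601). The transketolase Tkt had 405, 416 and 454 CPM against 415, 375 and 402 CPM (0.10 ± 0.09, edgeR adjusted p = 0.585). Rpe, the ribulose phosphate epimerase, had 27.5, 27.9 and 34.2 CPM against 25.6, 29.7 and 25.9 CPM (0.14 ± 0.12, edgeR adjusted p = 0.556). In all of these the diets overlapped. Rpia, the ribose phosphate isomerase, was the least abundant, at 18.0 ± 0.837 and 18.8 ± 0.707 CPM.

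The TCA cycle genes lay slightly higher on the high fat diet, with 1 gene, Pcx, far from the rest. Of 15 members, 12 had a positive log2 fold change (Cs and Pdha1 turned negative with median-ratio scaling, with no low-count filter and with DESeq2), the median was 0.11 (all genes tested: 0.00) and none passed edgeR's threshold. Summed over the 15 genes, the level was 683, 678 and 684 FPKM in the high fat libraries and 611, 633 and 603 FPKM in the normal diet libraries. The diets did not overlap in this sum, nor in the pentose phosphate sum, but they did in the glycolytic sum. Single genes did not overlap in Pcx, Fh1, Suclg1, Idh2 and Ogdh, 5 of 15, all higher on the high fat diet. Of all genes tested, 25.3% did not overlap in either direction, and 2077 of 14361 were higher without overlap. The Ogdh difference was small, with a log2 fold change of 0.07.

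Pcx, pyruvate carboxylase, refills the cycle with oxaloacetate and is the first enzyme of gluconeogenesis in hepatocytes. Pcx (chromosome 19, 4510472 to 4621752, mm10, plus strand) was the least abundant of the 15 genes per length, with a mean of 6.82 FPKM. It had 69.0, 32.9 and 38.0 CPM under high fat feeding and 3.53, 15.3 and 10.1 CPM under normal feeding. Every high fat library was above every normal diet library, and the spread within each diet was wide. The log2 fold change of 2.28 ± 0.55 (4.84-fold, 95% interval of the log2 value 0.94 to 3.61) had an edgeR adjusted p of 0.114 and a DESeq2 adjusted p of 0.000198. The highest library, high fat replicate 1, and the lowest, normal diet replicate 1, were also the highest and lowest in the hepatocyte score, which was 7.71, 6.95 and 6.86 under high fat feeding and 3.73, 5.77 and 5.79 on the normal diet. With the score as a covariate the log2 fold change of Pcx was 0.47 ± 0.33 (edgeR adjusted p = 0.869). Over the fits that left out 1 library each, it lay between 1.86 and 2.76, with an adjusted p between 0.0905 and 0.313.

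The 5′-most RefSeq promoter window of Pcx (chr19:4510222-4510521, GRCm38.p6, plus strand) is shown as that of the gene with the largest difference of the 41. It holds 3 cores, of which 2 overlap in CACGTG, a palindrome that reads as a core on both strands. The other RefSeq window of Pcx (chr19:4594069-4594368, plus strand) holds 0 cores, and which start is used in these cells was not tested.
Pcx: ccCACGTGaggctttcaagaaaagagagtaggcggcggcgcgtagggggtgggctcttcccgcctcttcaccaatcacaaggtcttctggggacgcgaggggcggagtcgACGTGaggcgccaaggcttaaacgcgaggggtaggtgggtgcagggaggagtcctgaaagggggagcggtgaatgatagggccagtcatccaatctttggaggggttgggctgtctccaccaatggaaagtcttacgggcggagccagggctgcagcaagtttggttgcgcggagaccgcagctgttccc

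**Figure D5:**
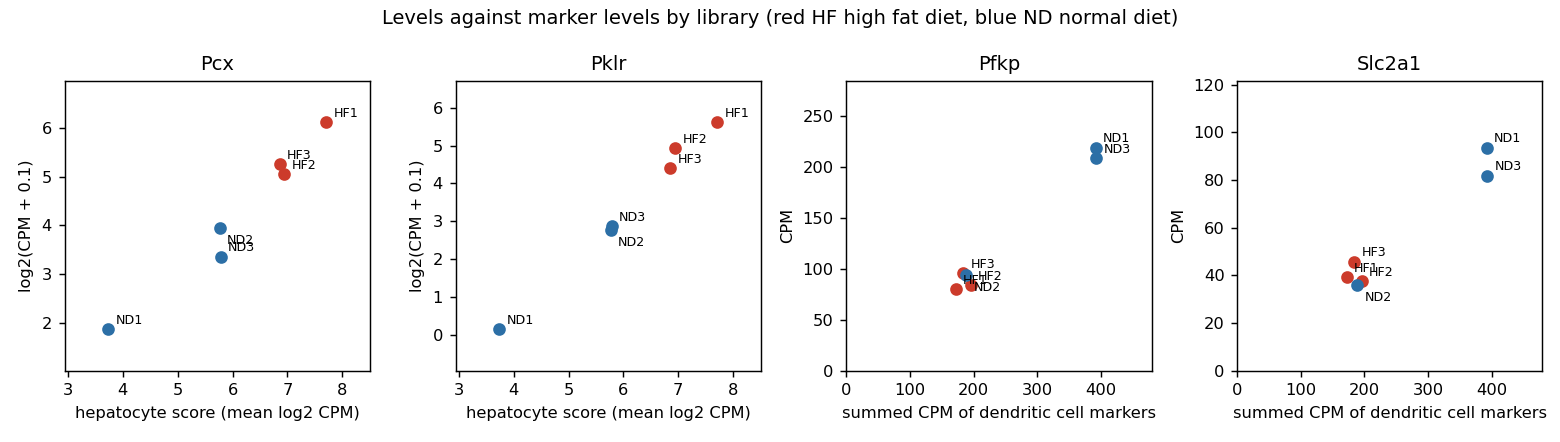
Left, log2(CPM + 0.1) of Pcx and of Pklr, a liver isozyme outside the 41 genes, against the hepatocyte score of each library. Right, CPM of Pfkp and Slc2a1 against the summed CPM of 8 dendritic cell markers. High fat replicate 1 and normal diet replicate 1 are the extremes of both panels on the left, and normal diet replicate 2, at 189 CPM of markers, lies among the high fat libraries on the right. Sums of sinusoidal endothelial, lymphocyte and cholangiocyte markers, not drawn, were also highest in normal diet replicates 1 and 3.

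At the other entry, Pdha1, the catalytic subunit of pyruvate dehydrogenase, was level at 54.7 ± 1.98 and 54.5 ± 2.67 CPM, with a 95% interval of the log2 fold change from -0.16 to 0.18. Cs, the citrate synthase that starts the cycle, was equally level at 163 ± 5.79 and 163 ± 7.83 CPM (-0.17 to 0.18). The NAD-dependent isocitrate dehydrogenase subunits stood at 33.8 ± 2.96 and 37.0 ± 2.69 CPM for Idh3a, 91.0 ± 5.24 and 83.9 ± 4.72 CPM for Idh3b, and 101 ± 3.09 and 93.6 ± 7.28 CPM for Idh3g. None of these 5 genes had an unadjusted p under 0.05.

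The NADP-dependent isocitrate dehydrogenases feed NADPH to the cytosol (Idh1) and to mitochondria (Idh2). Idh1 had 245, 218 and 246 CPM under high fat feeding and 163, 246 and 142 CPM under normal feeding. Normal diet replicate 2 lay within the high fat range and the other normal diet libraries below it. The log2 fold change was 0.36 ± 0.20 (edgeR adjusted p = 0.389). Without normal diet replicate 2 it was 0.62 ± 0.10 and passed (edgeR adjusted p = 0.0166). Idh1 was the single TCA cycle gene to do so in that setting, in which 9.44% of all genes passed. For Idh1 the omitted library is the highest of its diet, so its omission lowers the normal diet mean. The higher fold change and smaller spread then follow from the choice of library and are given as description. Idh2 was at 67.5 ± 2.82 and 57.6 ± 5.13 CPM (0.23 ± 0.09, edgeR adjusted p = 0.226), its highest normal diet library at 60.9 CPM and its lowest high fat library at 65.8 CPM.

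The middle of the cycle turns 2-oxoglutarate into succinate. The 2-oxoglutarate dehydrogenase Ogdh had 232 ± 3.29 and 221 ± 9.72 CPM and its partner Dlst 143 ± 8.88 and 147 ± 9.83 CPM. Suclg1, the shared subunit of succinyl-CoA ligase, had 54.5, 48.0 and 46.7 CPM under high fat feeding and 38.4, 44.0 and 43.0 CPM under normal feeding. The high fat libraries were all above, and the log2 fold change was 0.25 ± 0.09 (edgeR adjusted p = 0.221). With the hepatocyte score as a covariate it was 0.02 ± 0.14. Sucla2, the ATP-forming partner, was at 41.4 ± 2.08 and 38.3 ± 1.91 CPM.

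Fh1, the fumarase, had 43.2, 47.3 and 43.5 CPM under high fat feeding and 33.1, 33.2 and 39.6 CPM under normal feeding. All high fat libraries were higher, and the log2 fold change of 0.34 ± 0.10 had an edgeR adjusted p of 0.145 and a DESeq2 adjusted p of 0.0959. With the hepatocyte score as a covariate it was 0.24 ± 0.18. The malate dehydrogenases close the cycle in mitochondria (Mdh2) and carry reducing equivalents in the cytosol (Mdh1). Mdh2, the most abundant TCA cycle gene with a mean of 93.9 FPKM, had 128, 135 and 136 CPM against 145, 120.0 and 157 CPM (-0.08 ± 0.11, edgeR adjusted p = 0.735). Mdh1 had 185, 198 and 178 CPM against 183, 174 and 154 CPM (0.14 ± 0.09, edgeR adjusted p = 0.473). The diets overlapped in both.

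Genes next to these pathways, taken from lists of the same kind, gave 1 call. Among 26 further genes of pyruvate entry, the TCA cycle and mitochondrial carriers, Pdk1 passed (0.634% of all genes), 10 had an unadjusted p under 0.05 (9 higher, 1 lower), beside 18.6% of all genes, 21 log2 fold changes were positive and the median was 0.16. DESeq2 called 5 of the 26 higher, Pdk1 and, named after their values were seen, Suclg2, Me1, Slc25a10 and Slc25a11, beside 8.08% of all genes. Without normal diet replicate 2, 7 of the 26 passed edgeR (6 higher, 1 lower), beside 9.44%. Pdk1, the kinase that phosphorylates pyruvate dehydrogenase and so slows pyruvate entry, is known as a target of Hif1a. It rose from 27.8, 25.4 and 26.4 CPM under normal feeding to 40.5, 37.8 and 39.0 CPM under high fat feeding, with a log2 fold change of 0.56 ± 0.08 (1.48-fold, edgeR adjusted p = 0.0431, DESeq2 adjusted p = 9.7e-05). The libraries of each diet were close together and far from the other diet. Fitted with the hepatocyte score, the log2 fold change of Pdk1 was 0.63 ± 0.15 and no longer passed. No gene of the whole table passed in that fit, so failing there says nothing particular about Pdk1. Pdk1 also failed the edgeR threshold in 5 of the 6 fits that left out 1 library, with log2 fold changes between 0.52 and 0.59, and passed without normal diet replicate 2. The promoter window of its 5′-most RefSeq start (chr2:71872974-71873273, GRCm38.p6, plus strand) is shown as that of the called gene and holds 2 cores. Pdk1 has 2 RefSeq windows, and the other is not shown.
Pdk1: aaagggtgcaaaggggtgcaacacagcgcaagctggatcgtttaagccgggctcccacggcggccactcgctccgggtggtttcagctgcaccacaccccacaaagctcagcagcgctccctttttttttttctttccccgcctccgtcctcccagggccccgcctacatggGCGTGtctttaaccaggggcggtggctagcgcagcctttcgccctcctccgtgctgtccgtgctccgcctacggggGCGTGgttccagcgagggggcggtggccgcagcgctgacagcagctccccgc

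Of 17 further glycolytic genes tested, 0 passed edgeR and 6 had an unadjusted p under 0.05 (4 higher, 2 lower), beside 18.6% of all genes. The smallest p belonged to Pgm2, a phosphoglucomutase, at 33.6 ± 5.50 CPM under high fat feeding and 23.2 ± 2.05 CPM under normal feeding (log2 fold change 0.54 ± 0.14, edgeR adjusted p = 0.117), and to Gpd2, the mitochondrial glycerol phosphate dehydrogenase, at 35.1 ± 0.244 and 65.3 ± 20.2 CPM (-0.90 ± 0.23, edgeR adjusted p = 0.122). DESeq2 called both, and Eno2, named here after its values were seen, which makes 3 of 17 beside 8.08% of all genes. Of 7 further pentose phosphate genes tested, 0 passed edgeR or DESeq2 and 2 had an unadjusted p under 0.05 (18.6% of all genes), H6pd of the endoplasmic reticulum (0.44 ± 0.12, edgeR adjusted p = 0.126) and the sedoheptulose kinase Shpk (0.78 ± 0.27, edgeR adjusted p = 0.196).

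The 10 sugar enzymes and transporters of hepatocytes examined all had a positive log2 fold change, with a median of 1.69, and 0 passed edgeR while 5 had an unadjusted p under 0.05 (18.6% of all genes) and DESeq2 called 4 (8.08% of all genes), Pklr, Fbp1 and, named after their values were seen, Slc2a2 and Gpd1. Pklr had 48.8, 30.3 and 21.0 CPM under high fat feeding and 1.01, 6.79 and 7.21 CPM under normal feeding (2.74 ± 0.68, edgeR adjusted p = 0.122). Fbp1, the fructose bisphosphatase of gluconeogenesis, had 75.7, 46.2 and 51.3 CPM against 3.83, 20.9 and 15.6 CPM (2.10 ± 0.57, edgeR adjusted p = 0.138). Once the hepatocyte score was a covariate, the median of the 10 was -0.14, with 4 of 10 positive.

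Regulators of glycolysis and hypoxia targets did not share a direction. Of 21 tested, 0 passed edgeR, 6 had an unadjusted p under 0.05 (1 higher, 5 lower), beside 18.6% of all genes, DESeq2 called 1 higher and 1 lower, beside 8.08%, and the median log2 fold change was -0.12. Bnip3, a mitophagy receptor and Hif1a target, was at 24.7 ± 6.96 and 12.8 ± 2.55 CPM (0.95 ± 0.23, edgeR adjusted p = 0.111), and Myc, a transcription factor that drives many glycolytic genes, at 69.7 ± 13.5 and 108.0 ± 22.8 CPM (-0.63 ± 0.19, edgeR adjusted p = 0.166). Without normal diet replicate 2, 3 of the 21 passed (9.44% of all genes), all lower on the high fat diet: Hif1a itself (-0.64), its partner Arnt (-0.39) and Ndrg1 (-1.04), named here after their values were seen. Over all 6 libraries Hif1a had 84.0, 86.3 and 97.6 CPM under high fat feeding and 148, 90.6 and 129 CPM under normal feeding, with normal diet replicate 2 again inside the high fat range.

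Reads from neighbouring genes limit some of these values. In the GENCODE annotation of the same build, exons of 13 of the 41 genes overlap exons of a gene on the opposite strand, among them Hk3 with Unc5a and Pfkp with Pitrm1, and no strand-keeping step is named in the library protocol.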

How the data were processed

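RNA from liver macrophages was sequenced as poly(A)-selected libraries, 3 per diet, and groups were taken from the treatment label. The authors deposited 1 table of 14918 genes with raw read counts per library, FPKM values, and their own diet comparison (log2 fold change, p-value and adjusted p-value). Per the submitters' processing notes, the mm10 build and the tools DESeq, edgeR, featureCounts, HISAT2, STAR, STAR-Fusion and StringTie were used. The sources used here do not give versions, the strand setting or the treatment of reads shared between genes. Counts were tested with edgeR 4.0.16 in R 4.3.3 (TMM scaling, default low-count filter leaving 14361 genes, robust quasi-likelihood), and p-values were adjusted by Benjamini-Hochberg over all genes tested, with a threshold of 0.05. The SE was taken as the log2 fold change over the root of F, and the 95% interval uses the test's degrees of freedom. The common biological coefficient of variation was 20.9%. CPM compares 1 gene between libraries. Levels of different genes were compared only as the authors' FPKM. Libraries of a diet differed beyond counting noise (13.7 to 72.4 chi-square units per degree of freedom), so none repeats another. The script was tested on simulated data. Alternatives were total-count and median-ratio scaling, the test without the low-count filter or without the robust prior, DESeq2 1.42.0, a covariate (the hepatocyte score, the mean log2 CPM of 22 markers with a prior count of 2), and omission of each library in turn.

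The genes and lists were chosen with earlier results of these data known. Every one of the 41 genes is named, with values in each library for the 3 most abundant and the 3 of smallest p in each pathway, and also for Slc2a1 and Slc16a3, which were chosen after their values were seen, as was Hif1a. Of each further list the called genes are named (at most 5), otherwise the 2 of smallest p. Symbols follow the deposited names, with 14842 of 14918 identifiers matched to GENCODE, and Adgre1 is listed as Emr1 in the table. Promoter sequences are from RefSeq (GRCm38.p6), which has a window for 40 of the 41 genes. Some genes of these families are not reported here.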

Additional observations from a re-analysis of the deposited data

How the results depend on the processing

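No paired analysis was possible because the labels give the diets no shared replicate numbers. Over all alternatives run, the median log2 fold change lay between -0.12 (without normal diet replicate 2) and 0.19 (in the fit that includes the hepatocyte score) for glycolysis, so its sign was not fixed, between 0.043 and 0.13 for the pentose phosphate pathway and between 0.068 and 0.14 for the TCA cycle, and 0 pentose phosphate genes passed in any. Genes called over the whole table numbered 91, 1206 with DESeq2, 0 with the hepatocyte score as a covariate (911 at an unadjusted p under 0.05) and between 0 and 1385 with 1 library left out, the highest without normal diet replicate 2. Glycolytic calls were 0, 2 with DESeq2 and between 0 and 4 with 1 library left out; TCA cycle calls were 0, 1 and between 0 and 1. Scaling, the low-count filter and the robust prior changed no call among the named genes. With the covariate, Alb, itself 1 of the markers in the score, turned from 1.71 to -0.16. Other signs turned, and the cause was not tested: with the covariate Gpi1 was at 0.10, Pfkfb3 at 0.11 and Dlst at 0.082. Cs was at -0.0077 with median-ratio scaling, -0.012 with no filter and -0.0062 with DESeq2, and Pdha1 at -0.0042, -0.0083 and -0.0027. With 1 library left out, log2 fold changes ranged from -0.11 to 0.0074 for Gpi1, -0.079 to 0.22 for Pfkl, -0.074 to 0.14 for Tpi1, -0.10 to 0.17 for Pgk1, -0.12 to 0.081 for Ldha, -0.18 to 0.48 for Slc16a3, -0.085 to 0.11 for G6pdx, -0.027 to 0.16 for Pgd, -0.034 to 0.029 for Cs, -0.19 to 0.0080 for Mdh2 and -0.037 to 0.031 for Pdha1. With 3 libraries per diet, the wide intervals of Slc2a1, Slc16a3, Pfkp and Pcx rest on spread between libraries, each of these genes having at least 70 counts in every library.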
